A study of Mus musculus with 6 samples.

Results

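The genes described here are the 11 laminin chains, 12 integrin alpha subunits and 8 integrin beta subunits found by the pattern of their symbols, with Nid1, Nid2, Hspg2 (perlecan), Agrn (agrin) and Dag1 (dystroglycan). They make 36 of the 17607 genes in the table, and all 36 had enough reads to enter the test. RNA was sequenced from auditory nerve microdissected from 3 old CBA/CaJ mice aged 2.5 years and 3 young adult CBA/CaJ mice aged 2 months. Both cochleas of a mouse were pooled into 1 library, so each value stands for 1 animal. The sources used here give no treatment and no altered gene for either group, and CBA/CaJ is an inbred strain used in hearing research. The dissected nerve holds the spiral ganglion neurons with Schwann cells, satellite glia, vessels and connective tissue.

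Basement membranes are thin sheets of matrix that in peripheral nerve wrap every Schwann cell and its axon and line the blood vessels. Their frame is built of laminins, trimers of 1 alpha, 1 beta and 1 gamma chain, which nidogens and the heparan sulfate proteoglycans perlecan and agrin join to the collagen IV network. Cells hold on to laminin through integrins, which are pairs of an alpha and a beta subunit, and through dystroglycan, whose sugar chains bind laminin, agrin and perlecan. In Schwann cells the alpha 2 laminins and their receptors are known for their part in axon sorting and myelination.

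Values are normalised read counts. A log2 fold change sets old against young nerves after adding 1 to each value and is given ± its SE. Adjusted p-values are Benjamini-Hochberg values of limma's test over 15882 genes, and a gene passed at an adjusted p under 0.05. The recovered reads per library were 34587979 to 38835751 in the old group and 35213213 to 40841478 in the young group. Of all tested genes 5493, or 34.6%, passed, 15.9% as higher and 18.7% as lower in old nerves. With upper-quartile scaling the split was 3356 higher and 2409 lower. Old 2 and young 1 deviated together from the means of their groups (correlation of deviations across tested genes 0.396), so the main counts below are also given without both. Log2 fold changes were lower for longer transcripts (Spearman correlation -0.377 across tested genes, which are not independent replicates). Of the 36 genes 34 have a transcript longer than the median tested gene (medians 5784 and 3101 nt). For that reason the main results are also given with smooth trends in transcript length and GC content removed from every library. Markers of the labelled tissue, Schwann cell myelin and spiral ganglion neuron genes, were abundant in all 6 libraries.

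More of these basement membrane and adhesion genes fell than rose in old nerves, and removal of the length and GC trends turned that balance. Of the 36 genes 13 fell and 2 rose, where 18.7% and 15.9% of all tested genes did so, and the median log2 fold change was -0.27 against -0.001 over all tested genes. edgeR on the recovered reads also called 13 lower and 2 higher, against 18.2% and 15.9% of all genes. Of the 36 genes 16 had every old value below every young value and 4 had it above, where 26.3% and 25.5% of all tested genes did so. These are 20 in all, where 51.8% of all tested genes had groups that did not overlap. Those that fell were Hspg2, Dag1, Nid2, Nid1, Agrn, Lama1, Lama2, Lamb1, Lamc1, Itga6, Itga7, Itga10 and Itgb3. Among the rises was Itgb2, the shared beta subunit of leukocyte integrins. After removal of both trends 3 fell (Dag1, Itga6 and Nid2) and 7 rose (among them Itgb2, Lamb3, Lama5, Itgb4, Itgb5 and Itga5), where 12.1% and 11.8% of the 15752 genes with a length did so. Without both young 1 and old 2 there were 7 falls and 2 rises, against 5.97% and 5.25% of all genes. Dag1, Itga6, Nid2 and Itgb2 passed in the same direction in every fit and alternative that kept the threshold of 0.05. In bulk tissue fewer cells of a type and less RNA per cell cannot be told apart.

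**Figure D1:**
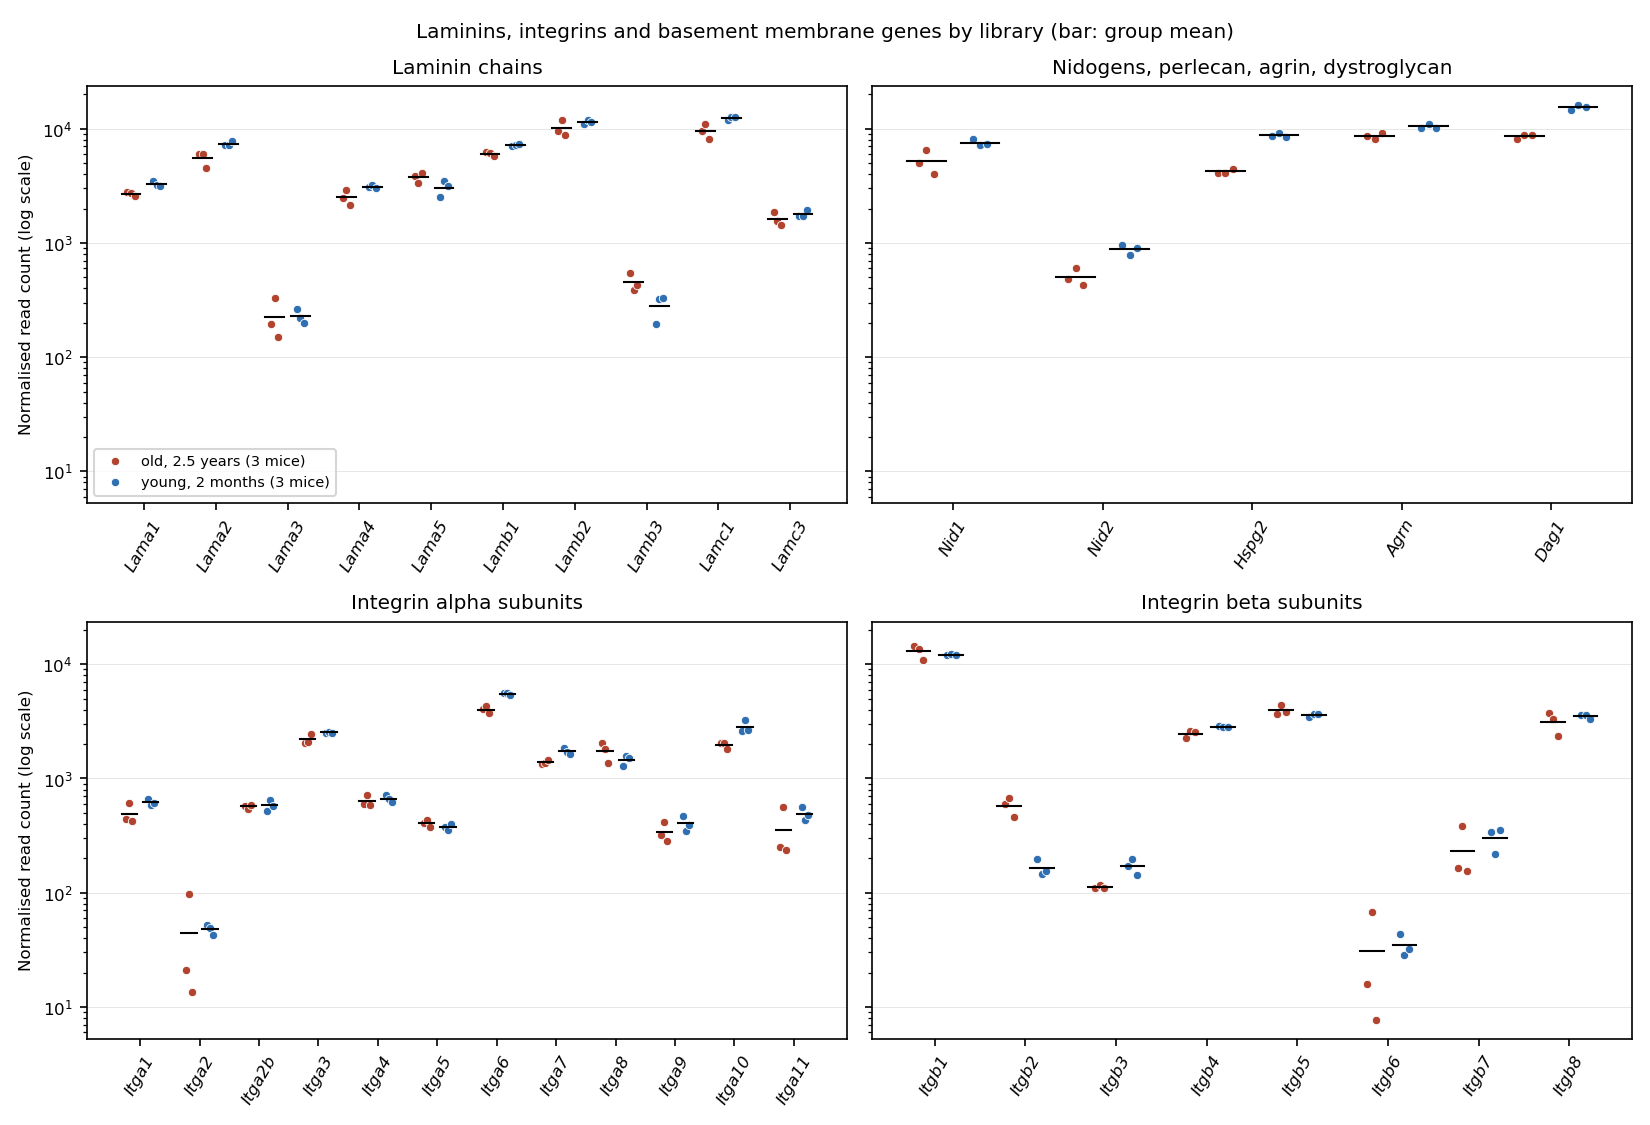
Normalised read count (log axis) of the genes described in the 3 old (red) and 3 young (blue) libraries, with the group mean as a bar. Hspg2 and Dag1 stand lower in every old library than in any young one, Itgb2 stands higher, and in Itga2, Itga11, Itgb6 and Itgb7 old 2 stands far above the other two old libraries.

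**Figure D2:**
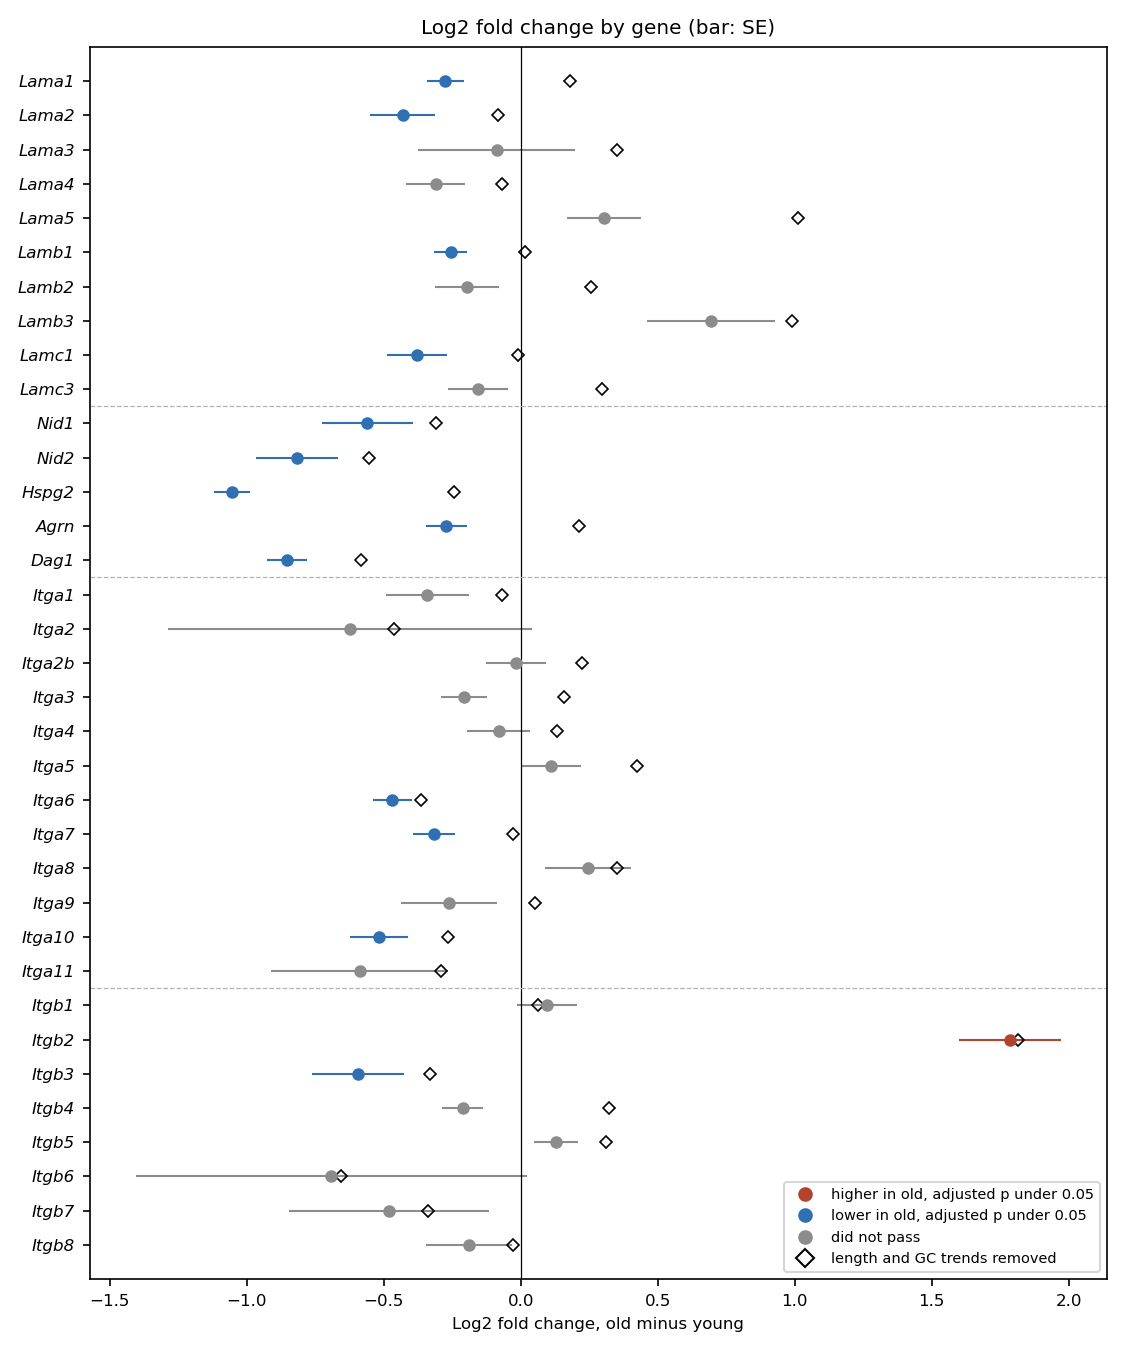
Log2 fold change (old minus young) of each gene with its SE as a bar, coloured by whether it passed, and the same value with the length and GC trends removed as an open diamond. The open diamonds lie to the right of the filled points for every gene but Itgb1, and of the genes that passed, those of Agrn, Lama1 and Lamb1 lie on the other side of 0.

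The 5 genes that tie the network together or to the cell surface all fell, where 18.7% of all tested genes did so. Their median log2 fold change was -0.82. Once the trends were removed 2 of the 5 fell, against 12.1% of the genes with a length. Nid1 and Nid2 encode the nidogens, Hspg2 the large heparan sulfate proteoglycan perlecan, Agrn the proteoglycan agrin, and Dag1 the precursor that is cut into alpha and beta dystroglycan. Promoter windows are shown for these 5 genes, of which the RefSeq table holds 4, and all 4 fell in the main test. Windows of other genes that fell, Lama2, Lamb1 and Itga10 among them, are not shown. With the trends removed only Dag1 of the 4 passed, and Agrn turned to 0.21. Each runs 5′ to 3′ from 250 bases before to 50 bases after the start of the RNA (GRCm38.p6). Nid1 is at chr13:13437352-13437651 on the plus strand, Hspg2 at chr4:137468553-137468852 on the plus strand, Agrn at chr4:156197439-156197738 on the minus strand and Dag1 at chr9:108263909-108264208 on the minus strand. Capitals mark matches, on either strand, to the GC box GGGCGG, the CCAAT box CCAAT, the TATA box TATAAA, the AP-1 site TGANTCA, the PU.1 core GAGGAA or the E-box CACGTG.
Nid1: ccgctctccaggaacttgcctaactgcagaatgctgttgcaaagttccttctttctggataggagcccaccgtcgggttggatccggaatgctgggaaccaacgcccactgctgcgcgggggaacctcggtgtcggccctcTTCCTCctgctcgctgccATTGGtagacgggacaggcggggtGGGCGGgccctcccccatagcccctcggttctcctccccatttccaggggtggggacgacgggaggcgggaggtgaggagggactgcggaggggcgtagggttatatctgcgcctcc
Hspg2: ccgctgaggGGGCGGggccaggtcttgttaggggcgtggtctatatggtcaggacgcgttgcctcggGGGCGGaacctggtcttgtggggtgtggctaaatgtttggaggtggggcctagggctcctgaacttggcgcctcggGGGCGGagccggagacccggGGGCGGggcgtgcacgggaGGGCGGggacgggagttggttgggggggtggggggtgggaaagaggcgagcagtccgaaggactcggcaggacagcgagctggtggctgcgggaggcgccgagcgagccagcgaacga
Agrn: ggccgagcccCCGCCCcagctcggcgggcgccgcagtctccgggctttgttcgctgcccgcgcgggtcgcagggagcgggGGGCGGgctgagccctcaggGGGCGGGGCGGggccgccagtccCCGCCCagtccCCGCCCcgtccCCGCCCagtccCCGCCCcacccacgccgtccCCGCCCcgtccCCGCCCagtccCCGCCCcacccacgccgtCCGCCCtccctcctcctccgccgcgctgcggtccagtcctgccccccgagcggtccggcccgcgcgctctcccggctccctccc
Dag1: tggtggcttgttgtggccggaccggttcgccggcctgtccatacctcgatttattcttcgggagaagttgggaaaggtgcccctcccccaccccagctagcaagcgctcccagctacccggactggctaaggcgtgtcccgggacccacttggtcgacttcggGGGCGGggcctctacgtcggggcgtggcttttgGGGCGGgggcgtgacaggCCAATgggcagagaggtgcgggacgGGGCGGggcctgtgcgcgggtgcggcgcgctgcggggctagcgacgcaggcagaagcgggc

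The windows of Agrn, Hspg2, Dag1 and Nid1 are 83.3%, 70.3%, 69.7% and 64.7% G or C. They hold 12, 5, 3 and 1 matches to the GC box, some of them overlapping, where 35.7% of the 32851 windows in the table hold at least 1. None of the 4 holds a match to the TATA box, which 13.6% of all windows do, to the AP-1 site (7.81%) or to the E-box (7.15%). The CCAAT box (37.4% of all windows) is in those of Dag1 and Nid1, and the PU.1 core (28.3%) in that of Nid1. Of the 36 genes 24 have a window there, and 13 of these hold a GC box.

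Hspg2 had 4118, 4115 and 4436 in the old libraries, against 8644, 9136 and 8524 in the young ones. All 3 old values lay below all 3 young values, as they did for the 5 linkers alike, where 26.3% of all tested genes have the old group wholly below. The log2 fold change of Hspg2 was -1.05 ± 0.06 (adjusted p = 0.00231). Its transcript is the longest of the 36, at 14187 nt, and 60.9% G or C, and with the trends removed the value was -0.24 (adjusted p = 0.0807). In mm10 it lies on chromosome 4 from 137468803 to 137570630.

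Dag1 had 8098, 8834 and 8773 in old libraries, against 14662, 16139.6 and 15608 in young libraries. The group means were 8568 ± 409 and 15469.9 ± 748 (SD, n = 3 each). The log2 fold change was -0.85 ± 0.07 (adjusted p = 0.00399), and -0.58 with the trends removed (adjusted p = 0.00791). Dag1 lies on chromosome 9 from 108204861 to 108263958, and 215903 bases lie between it and Lamb2.

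Nid2 had 482, 605 and 428 in the old libraries and 964, 780.5 and 909.6 in the young libraries, without overlap. Its log2 fold change was -0.82 ± 0.15 (adjusted p = 0.00854), and -0.55 with the trends removed (adjusted p = 0.0426). Nid1, several times more abundant per length, had 5046, 6545 and 4022 in old nerves, against 8071, 7238 and 7282 in young nerves. Old 2 was the highest of the old libraries in both nidogens. The change of Nid1 was -0.56 ± 0.16 (adjusted p = 0.0367), and -0.31 with the trends removed (adjusted p = 0.225). Nid2 overlaps Rtraf on the other strand, and no source used here says whether counting used strand.

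Agrn changed least of the 5, with 8686, 8172 and 9199 in old libraries and 10121, 11097 and 10235 in young libraries. Its log2 fold change of -0.27 ± 0.07 (adjusted p = 0.0292) became 0.21 with the trends removed (adjusted p = 0.0686). Within a library the ratio of Agrn to Hspg2, in counts per kb of transcript, was 4.12, 3.88 and 4.05 in the old group, against 2.29, 2.37 and 2.35 in the young group. The ratio was higher in 3 of 3 old libraries, by 0.78 on the log2 scale (exact permutation test, two-sided, p = 0.1, the smallest that 3 against 3 can give, and 0.2 adjusted over the 10 pairs compared). With the trends removed the difference was 0.45.

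Among the laminin chains, the RNAs of Lama1, Lama2, Lamb1 and Lamc1 fell by small amounts. The levels per kb of transcript put Lamb2 first in both groups (1790.4 ± 292 in old nerves and 2037 ± 72.2 in young nerves), then Lamc1 (1255 ± 181 and 1620.4 ± 62.7) and Lamb1 (1046 ± 36.2 and 1247 ± 21.2). Lama2, the alpha chain of Schwann cell basement membrane, led the alpha chains at 577 ± 89.9 in old nerves and 771 ± 36.8 in young nerves. Lama4, an alpha chain of vessels and nerve, stood at 415 ± 62.1 and 511 ± 14.8. Below them came Lama5 (329 ± 34.9 and 268 ± 44.0), Lama1 (284 ± 9.99 and 344 ± 18.7) and Lamc3 (275 ± 36.8 and 305 ± 21.9), whose order differed between the groups. In old nerves Lama1 and Lamc3 differed by less than the SD of Lamc3. The epithelial chains Lamb3 and Lama3 were low, with Lamb3 at 92.7 ± 16.9 and 58.1 ± 15.5 and Lama3 at 21.3 ± 8.87 and 21.5 ± 3.16 (SD, n = 3 each).

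Of the 11 chains 4 fell, 1 rose and 6 did not pass, where 18.7% of all tested genes fell and 15.9% rose. The median log2 fold change of the chains was -0.20. Lama2 had 6027, 6058 and 4546 in old libraries and 7235, 7179.7 and 7818 in young libraries. The old values were all below the young ones, and the change was -0.43 ± 0.12 (adjusted p = 0.0300). Lamc1, the gamma chain of most trimers, had 9572, 10942 and 8187 in the old group, against 11805, 12694 and 12552 in the young group. It changed by -0.38 ± 0.11 (adjusted p = 0.0353). Lamb1, the commonest beta chain of development, had 6234, 6088 and 5821 in old libraries and 7095, 7210.2 and 7340.4 in young libraries (-0.26 ± 0.06, adjusted p = 0.0176). Lama1, the alpha chain of the embryonic laminin, had 2767, 2749 and 2594 in old libraries and 3472, 3216 and 3129.6 in young libraries (-0.28 ± 0.07, adjusted p = 0.0202). Neither overlapped between the groups. With the trends removed none of the 4 passed, and the values were -0.08 for Lama2, -0.01 for Lamc1, 0.02 for Lamb1 and 0.18 for Lama1. All 4 also missed the threshold when either young 1 or young 2 was left out, and when young 1 and old 2 both were, and their highest adjusted p-values over the fits with 1 library left out were 0.0724 to 0.110.

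Lamb2, another beta chain of nerve and muscle, did not pass, with 9573, 11915 and 8747 in old libraries and 11061, 11874 and 11458 in young libraries (-0.20 ± 0.12, adjusted p = 0.223). Old 2 alone reached the young level, and without it the value was -0.33 (adjusted p = 0.0385). Lamb2 turned to 0.26 with the trends removed (adjusted p = 0.221). The ratio of Lamb2 to Lamb1 was 1.58, 2.01 and 1.54 per kb in the old group and 1.60, 1.69 and 1.60 in the young group, which overlap (exact permutation p = 1). Lama4 had 2454, 2909 and 2165 in the old group and 3067, 3189.8 and 3016 in the young group (-0.31 ± 0.11, adjusted p = 0.0613). It was lower in every old library than in any young one and passed only without old 2 (-0.42, adjusted p = 0.0217) among the fits run. Lamc3, a gamma chain described in nerve and retina, had 1853, 1569 and 1429 in old libraries and 1730.0, 1707 and 1940.3 in young libraries (-0.15 ± 0.11, adjusted p = 0.302), which overlapped. The ratio of Lama4 to Lama2 also overlapped (0.65 to 0.76 in the old group and 0.61 to 0.71 in the young group, exact permutation p = 0.3, adjusted p = 0.375).

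Lamb3, a beta chain of epithelial basement membrane, had 543, 385 and 425 in old libraries and 196, 322 and 330.4 in young libraries. It was higher in every old library but missed the threshold (0.70 ± 0.23, adjusted p = 0.0549), passed with the trends removed (0.99, adjusted p = 0.0309) and had an FDR of 0.0225 in the authors' deposited table. Lama3, an alpha chain of epithelia, did not pass (-0.09 ± 0.29, adjusted p = 0.834), with 193, 329 and 149.9 in old libraries and 264, 218 and 199 in young libraries. The annotation has G0s2 and Hsd11b1 overlapping Lamb3 on the other strand. A set of 10 markers of cochlear epithelium and hair cells summed to 27514 to 36350.4 in old libraries and 22491 to 34474 in young libraries. Of the 10 markers 1 was higher and 1 lower, where 15.9% and 18.7% of all tested genes were. Epcam rose, with 4349, 2742 and 3067 in old libraries and 914, 1462 and 1749 in young libraries (1.32 ± 0.26, adjusted p = 0.0106). Sox2 fell (-0.39 ± 0.09, adjusted p = 0.0157). The part of these cells in the values of Lamb3 and Lama3 was not tested.

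Lama5, the alpha chain of adult vessel and epithelial laminins, had 3830.1, 3315 and 4097 in the old group, against 2518, 3510.2 and 3135 in the young group. The groups overlapped and the change was 0.30 ± 0.14 (adjusted p = 0.122). Its transcript of 11388 nt is among the longest, and with the trends removed the value was 1.01 (adjusted p = 0.00857). The ratio of Lama5 to Lama4 was 0.83, 0.61 and 1.005 per kb in old libraries and 0.44, 0.58 and 0.55 in young libraries, higher in 3 of 3 old libraries (difference 0.61 on the log2 scale, exact permutation p = 0.1, adjusted p = 0.2). The 10 endothelial markers summed to 15072 to 16464 in old nerves and 15937 to 16850.3 in young nerves. Of these 10 markers 2 fell, where 18.7% of all tested genes did so.

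**Figure D3:**
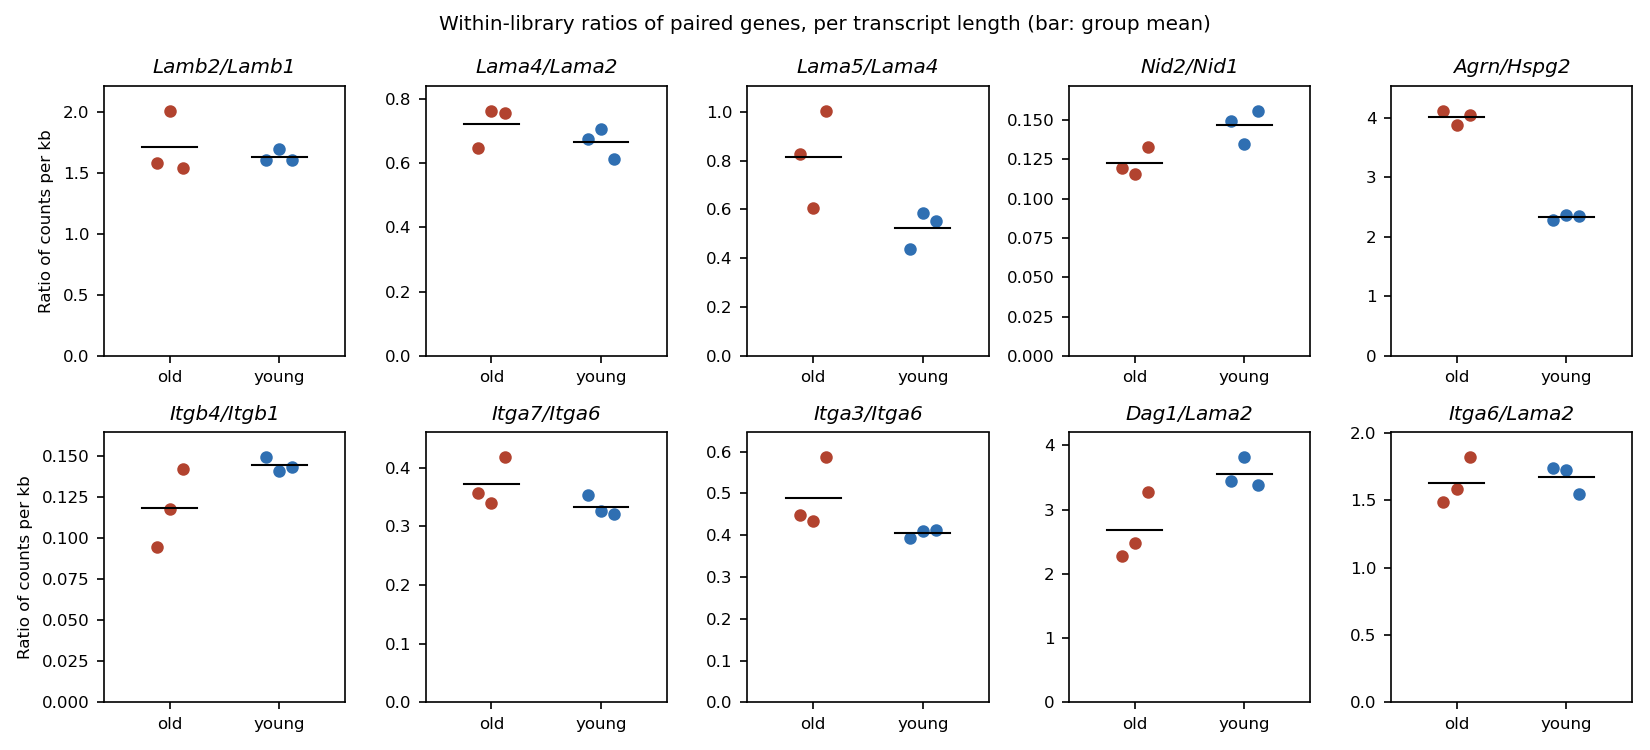
Ratio of counts per kb of transcript within each library for the 10 pairs compared, old (red) beside young (blue), with the group mean as a bar and every axis starting at 0. The Agrn to Hspg2 ratio is near 4 in the old libraries and near 2.3 in the young ones, the Dag1 to Lama2 ratio is lower in old libraries, and the Lamb2 to Lamb1 ratio overlaps.

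The receptors of these laminins fell in part. Integrin alpha 6, encoded by Itga6, pairs with beta 1 or beta 4 and binds most laminins, alpha 7 (Itga7) pairs with beta 1 in muscle and nerve, and alpha 3 (Itga3) with beta 1 binds laminins of vessels and epithelia. Itga6 had 4024, 4288 and 3709 in old libraries, against 5633, 5547 and 5420.0 in young libraries. The groups did not overlap, and the change was -0.47 ± 0.07 (adjusted p = 0.00604) or -0.36 with the trends removed (adjusted p = 0.0158). Itga7 had 1343, 1357 and 1447 in the old group and 1855, 1689.8 and 1628 in the young group (-0.32 ± 0.08, adjusted p = 0.0193). With the trends removed Itga7 was at -0.03 (adjusted p = 0.799), and it overlaps Mettl7b on the other strand. Itga3 had 2039, 2097 and 2456 in old libraries and 2506, 2568 and 2515 in young libraries. It was lower in all 3 old libraries but did not pass (-0.21 ± 0.08, adjusted p = 0.0929), although it did without old 3 (-0.29, adjusted p = 0.0116). Its direction turned with the trends removed, to 0.16 (adjusted p = 0.0822).

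Itgb1, the common partner of these subunits, was the most abundant integrin gene per length and did not pass. It had 14566, 13549 and 10988 in old libraries and 11934, 12239 and 12137 in young libraries (0.10 ± 0.11, adjusted p = 0.517). The old values lay on both sides of the young ones, and without old 3 it passed as higher (0.22, adjusted p = 0.0397). Itgb4, which with alpha 6 anchors epithelia and lies on the outer face of myelinating Schwann cells, had 2239, 2600.0 and 2547 in old libraries and 2902, 2802 and 2833 in young libraries. It was lower in 3 of 3 old libraries (-0.21 ± 0.07, adjusted p = 0.0644) and passed with TMM scaling (adjusted p = 0.0462). Removal of the trends turned its direction, to 0.32 (adjusted p = 0.0249).

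Both receptors were set against Lama2, a main ligand chain, within each library. The ratio of Dag1 to Lama2 was 2.28, 2.48 and 3.28 per kb in the old group and 3.44, 3.82 and 3.39 in the young group, lower in 3 of 3 old libraries (difference -0.42 on the log2 scale, exact permutation p = 0.1, adjusted p = 0.2). The ratio of Itga6 to Lama2 overlapped, at 1.49, 1.58 and 1.82 in old libraries and 1.74, 1.72 and 1.55 in young libraries (difference -0.04, exact permutation p = 0.9, adjusted p = 1). Itga3 to Itga6 was higher in 3 of 3 old libraries (0.26, exact permutation p = 0.1, adjusted p = 0.2), while Itga7 to Itga6 (0.15) and Itgb4 to Itgb1 (-0.31) overlapped (exact permutation p = 0.2 and adjusted p = 0.286 for both). Nid2 to Nid1 was lower in 3 of 3 (-0.26, exact permutation p = 0.1, adjusted p = 0.2). None of the 10 pairs could reach 0.05 with 3 mice a group.

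Dystroglycan works only with its sugar chain and its inner partners, and both sets were examined. Of 17 enzymes and cofactors that build the sugar chain 6 fell and 3 rose, where 18.7% and 15.9% of all tested genes did so. Their median log2 fold change was -0.12. Pomgnt1, an enzyme of the core sugar, changed by -0.36 ± 0.07 (adjusted p = 0.0120). Large2, a glycosyltransferase, rose to 367, 205 and 356 in old libraries, against 113, 151 and 144 in young libraries (1.14 ± 0.25, adjusted p = 0.0147). The other rises were of Dpm1 and Dpm3, subunits of the dolichol phosphate mannose synthase, and neither passed with the trends removed. Of the 17 genes 4 then fell and 1 rose, where 12.1% and 11.8% of the genes with a length did so. Without both young 1 and old 2 the counts were 1 fall and 1 rise, against 5.97% and 5.25% of all tested genes.

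Of 13 tested dystrophin complex partners 4 fell and 2 rose (median -0.14), where 18.7% and 15.9% of all tested genes did so. Prx (periaxin), which joins Drp2 and dystroglycan under the outer Schwann cell membrane, had 18657, 18634 and 20879 in the old group and 28273, 30929.6 and 28141 in the young group (-0.59 ± 0.09, adjusted p = 0.00584). Utrn (utrophin) changed by -0.48 ± 0.08 (adjusted p = 0.00758). Both have long transcripts, and with the trends removed Prx was at -0.19 (adjusted p = 0.101) and Utrn at -0.05 (adjusted p = 0.641). Drp2 itself did not pass (-0.25 ± 0.12, adjusted p = 0.134). Sntb1, a syntrophin, rose by 0.64 ± 0.14 (adjusted p = 0.0154). After removal of the trends 2 fell and 4 rose, where 12.1% and 11.8% of the genes with a length did so. Without both young 1 and old 2 a single gene passed, as higher, where 5.25% of all tested genes did so. The summed level of 10 myelinating Schwann cell markers was 339815 to 389265 in old libraries and 330812 to 378647 in young libraries. Of these markers 3 were lower and 1 higher, where 18.7% and 15.9% of all tested genes were.

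Of the leukocyte integrin genes Itgb2, Itgax and Itgam rose in old nerves, while Itgal, Itgae, Itga4 and Itgb7 did not pass. Itgb2 had 593, 671 and 457 in old nerves, against 197, 144 and 154 in young nerves, which did not overlap. The mean was 3.47-fold higher, and the log2 fold change was 1.78 ± 0.19 (adjusted p = 0.00416) or 1.81 with the trends removed (adjusted p = 0.00733). It lies on chromosome 10 from 77530348 to 77565674. Its partner alpha subunits carry letters instead of numbers and were examined as a separate list. Of its 6 genes 5 were tested and 2 rose, where 15.9% of all tested genes did so. Itgax (CD11c) had 258, 394 and 242 in old libraries and 19.7, 8.85 and 3.30 in young libraries (4.93 ± 0.55, adjusted p = 0.00445). Itgam (CD11b) had 722, 796 and 643 in old libraries, against 429, 268 and 262 in young libraries (1.20 ± 0.20, adjusted p = 0.00732).

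Itgal (CD11a), the partner found on lymphocytes, did not pass, with 189, 205 and 128 in the old group and 194, 139.6 and 139 in the young group (0.13 ± 0.23, adjusted p = 0.684). Fermt3, the kindlin of blood cells that activates these integrins, stood at the threshold (0.47 ± 0.15, adjusted p = 0.0496), missed it in edgeR (adjusted p = 0.0512) and reached an adjusted p of 0.150 with 1 library left out. The 12 macrophage markers summed to 16135 to 24232 in old nerves and 6313 to 8466 in young nerves. Of the 12 markers 10 rose, where 15.9% of all tested genes did so. The macrophage sum and Itgb2 were both highest in old 2 and lowest among old libraries in old 3. Neutrophil markers were uneven in both groups (295 to 2703 in old libraries, 285 to 2742 in young libraries). Of the 8 neutrophil markers 0 passed with all 6 libraries. Once young 1 and old 2 were both left out 5 rose, where 5.25% of all tested genes did so. Young 1 held the highest young neutrophil sum (2742) and old 2 the lowest old sum (295). Leaving out both sets high old sums against low young sums, so the 5 rises cannot show a change with age. T and NK cell markers summed to 39.6 to 111 in old libraries and 24.2 to 33.8 in young libraries, with Cd3g at 0 in at least 1. The part of these cells in the rise of Itgb2 was not tested.

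**Figure D4:**
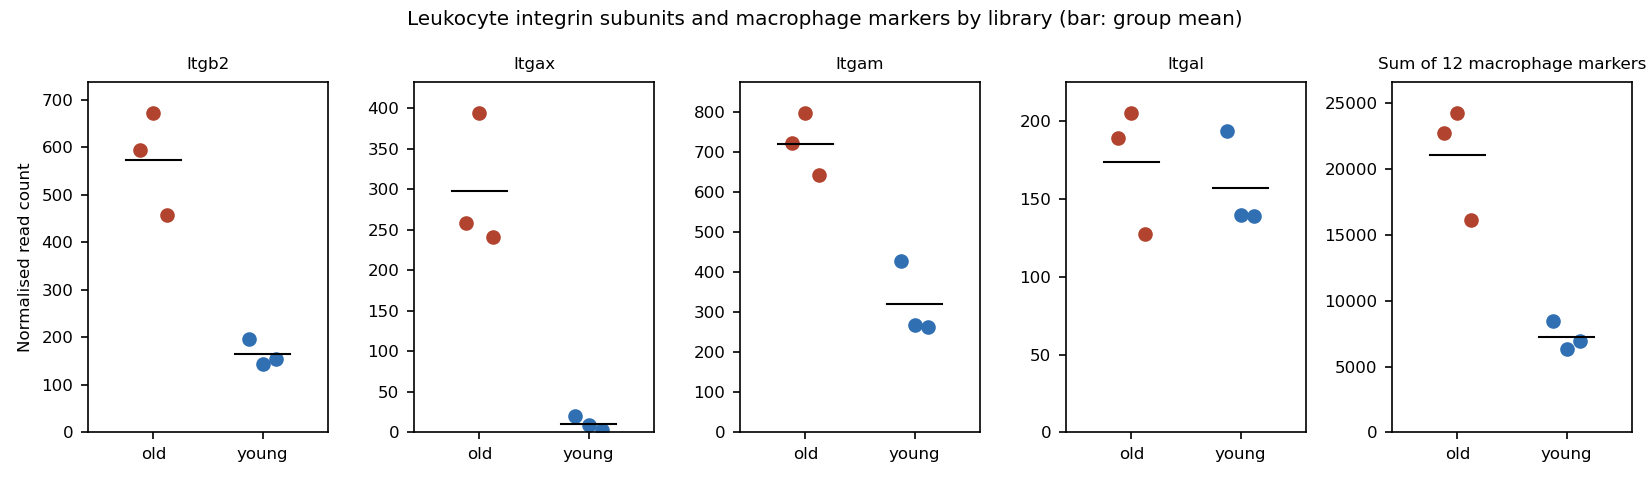
Normalised read count of Itgb2, its alpha partners Itgax, Itgam and Itgal, and the sum of 12 macrophage markers in each old (red) and young (blue) library, with the group mean as a bar. Itgb2, Itgax, Itgam and the marker sum lie higher in all 3 old libraries than in any young one, while Itgal overlaps.

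The remaining integrins bind collagen, fibronectin and other matrix or blood ligands, and few passed. Itga10, a collagen receptor of cartilage, fell to 2026, 2054 and 1824 in old libraries, against 2588, 3269 and 2636 in young libraries (-0.52 ± 0.11, adjusted p = 0.0116), and -0.26 with the trends removed (adjusted p = 0.125). In the annotation Itga10 overlaps the coding gene Gm42957 on the same strand. The 7 chondrocyte markers summed to 16824 to 20049 in old nerves and 15027 to 20035 in young nerves. Of the 7 markers 2 were lower and 1 higher, where 18.7% and 15.9% of all tested genes were. The cartilage matrix genes Acan (-1.59 ± 0.20, adjusted p = 0.00486) and Col2a1 (-1.84 ± 0.20, adjusted p = 0.00427) fell, while Cnmd (chondromodulin) rose to 14681, 10483 and 12819 in old libraries, against 2867, 5459 and 5547 in young libraries. The part of cartilage in the fall of Itga10 was not tested. Itgb3, which pairs with Itga2b on platelets and with Itgav elsewhere, had 109, 117 and 109 in the old group and 171, 197 and 143 in the young group. It passed in the full fit (-0.59 ± 0.17, adjusted p = 0.0318), but with 1 library left out only without young 3 (adjusted p = 0.0427). Itga2b, with 577, 546 and 591 in old libraries and 516, 649.8 and 575 in young libraries (-0.02 ± 0.11, adjusted p = 0.919), and Itgav (-0.05 ± 0.08, adjusted p = 0.636) did not pass. The platelet markers summed to 158 to 256 in old libraries and 174 to 338 in young libraries, and Ppbp and Gp9 stood at 0 in at least 1 library.

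For 7 of the 36 genes a fall passed only once old 2 was left out. Itga11, a collagen receptor of fibroblasts and bone cells, had 252, 567 and 239 in old libraries and 558, 433 and 480.1 in young libraries (-0.59 ± 0.32, adjusted p = 0.194). Itga2, a collagen receptor of platelets and epithelia and one of the 2 genes with values under 100 in every library, had 21.1, 97.7 and 13.5 in old libraries, against 51.7, 49.1 and 42.9 in young libraries. Itgb6, the other, is an epithelial subunit and had 15.9, 68.3 and 7.74 in old libraries, against 43.3, 28.5 and 31.9 in young libraries. In each of these 3 genes old 2 was the highest of all 6 libraries and old 1 and old 3 were the lowest. Itgb7, a lymphocyte subunit, had 165, 381 and 154 in old libraries and 340.4, 220.2 and 351 in young libraries. Itga1, a collagen receptor of vessels and stroma, overlaps Pelo and Gm49395 on the same strand. It had 444, 610.1 and 425 in old libraries and 660.0, 581 and 610.1 in young libraries. Old 2 was again the highest of the old libraries in both. Without old 2 the values were -0.99 for Itga11 (adjusted p = 0.0140), -1.44 for Itga2 (adjusted p = 0.0264), -1.53 for Itgb6 (adjusted p = 0.0444), -0.90 for Itgb7 (adjusted p = 0.0380) and -0.50 for Itga1 (adjusted p = 0.0251). Lama4 and Lamb2, given above, were the other two. Old 2 also had the highest sum among old libraries of 9 osteoblast markers (4194, against 2906 in old 1 and 2503 in old 3, with 5046 to 6670.0 in young libraries) and of 8 fibroblast markers (66316.5, against 45944 and 33568, with 53479 to 61379 in young libraries). In old 2 Dcn alone made up 41603 of the fibroblast sum. Of the 9 osteoblast markers 6 fell and of the 8 fibroblast markers 3 fell, where 18.7% of all tested genes did so. The 3 fibroblast markers were Col1a2 (-1.65), Col1a1 (-2.94) and Col3a1 (-1.47), and only Col1a2 passed with the trends removed. The part of these cells in the integrin values was not tested.

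The others did not pass and their groups overlapped, except Itgb5. Itgb5, a vitronectin receptor subunit, was higher in 3 of 3 old libraries (3689, 4391 and 3785, against 3483, 3665 and 3671 in young libraries) at 0.13 ± 0.08 (adjusted p = 0.250), and passed with the trends removed (0.31, adjusted p = 0.0315). Itga8, a receptor of nephronectin in mesenchyme, had 2041, 1828 and 1359 in old libraries and 1287, 1563 and 1508 in young libraries and passed only without old 3 (0.42, adjusted p = 0.0258). Itgb8, which with alpha V activates TGF-beta, had 3724, 3306 and 2378 in old libraries and 3594, 3614 and 3333 in young libraries (-0.19 ± 0.16, adjusted p = 0.378). Old 3 was the lowest old library for both of these subunits. The fibronectin receptor subunit Itga5 (408 ± 30.2 in old nerves and 377 ± 23.7 in young nerves), the leukocyte and neural crest subunit Itga4 (632 ± 74.8 and 667 ± 53.4) and the tenascin receptor subunit Itga9 (339 ± 65.1 and 405 ± 62.6) had adjusted p-values of 0.454, 0.613 and 0.279 in limma (SD, n = 3 each). Once the trends were removed Itga5 passed, as higher (0.43, adjusted p = 0.0472). The annotation has Itga4 overlapping Cerkl on the other strand.

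Other proteins of the basement membrane, listed with the netrin relatives Ntng1 and Ntng2, split by gene. Of 28 listed 10 fell and 3 rose, where 18.7% and 15.9% of all tested genes did so. The median log2 fold change was -0.07. Once the trends were removed 5 fell and 9 rose, where 12.1% and 11.8% of the genes with a length did so. The median was then 0.20. Col4a1 and Col4a2, the chains of the collagen IV found in every basement membrane, both fell. Col4a1 had 1945, 2264 and 1974 in old libraries, against 4099, 3959 and 3957 in young libraries (-0.96 ± 0.08, adjusted p = 0.00399), and Col4a2 changed by -0.74 ± 0.07 (adjusted p = 0.00399). With the trends removed Col4a1 was at -0.50 (adjusted p = 0.0154) and Col4a2 at -0.17 (adjusted p = 0.219). The chains of more specialised networks, Col4a3 (0.32), Col4a4 (0.14), Col4a5 (0.23) and Col4a6 (-0.08), did not pass, but with the trends removed Col4a3 (0.68), Col4a4 (0.56) and Col4a5 (0.52) did, as higher. Col15a1 had 363, 480.1 and 404 in the old group, against 1723, 1572 and 1587 in the young group (-1.97 ± 0.12, adjusted p = 0.00231), and no values overlapped. It encodes the core of a proteoglycan at the outer face of the basement membrane. Frem2, a protein that joins epithelium to mesenchyme, rose by 1.02 ± 0.20 (adjusted p = 0.00989), and the other rises were of Frem1 and Ntn1. Ntng1 and Ntng2, netrin relatives bound to the membrane of neurons, are among the falls counted. Ntng2 changed by -1.38 ± 0.19 (adjusted p = 0.00521) and Ntng1 by -0.63 ± 0.18 (adjusted p = 0.0324).

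Among 26 adaptors and kinases on the inner side of integrins 7 fell and 3 rose (median 0.04). The shares over all tested genes were 18.7% and 15.9%. Parvb (-1.08 ± 0.15, adjusted p = 0.00544) and Tln2 (-0.73 ± 0.11, adjusted p = 0.00618) were lower. Parvb was at -0.88 (adjusted p = 0.00991) and Tln2 at -0.22 (adjusted p = 0.0745) after removal of the trends. Fermt1, the kindlin of epithelia, rose to 193, 139 and 169 in old nerves, against 34.8, 56.0 and 81.5 in young nerves (1.60 ± 0.32, adjusted p = 0.0109). The core adaptors Tln1 (-0.11), Vcl (0.18) and Ilk (0.24) did not pass, although Tln1 (0.41) and Vcl (0.35) did as higher once the trends were removed. Of the 26 adaptors and kinases 2 then fell and 10 rose, where 12.1% and 11.8% of the genes with a length did so. Of 17 tested ligands outside the basement membrane Postn and Vcam1 rose and Tnr and Tnc fell. The shares of all tested genes were 15.9% higher and 18.7% lower. Both falls of ligands missed the threshold with the trends removed (adjusted p = 0.0911 for Tnr and 0.0789 for Tnc). Tnc also missed it in edgeR (adjusted p = 0.0637). With the trends removed 3 ligands rose, where 11.8% of the genes with a length did so. Fn1 (fibronectin) did not pass (-1.04 ± 0.35, adjusted p = 0.0567), with 4702, 12707 and 7147 in old libraries and 15866, 11882 and 19546 in young libraries. Of 16 other receptors and partners 5 fell and 5 rose, where 18.7% and 15.9% of all tested genes did so. Among them Gpc1, a surface heparan sulfate proteoglycan, changed by -0.53 ± 0.07 (adjusted p = 0.00506), Lrp4, the agrin receptor, by -0.47 ± 0.09 (adjusted p = 0.0112) and Sdc4, a syndecan, by 0.72 ± 0.15 (adjusted p = 0.0128). With the trends removed Lrp4 was at -0.04 (adjusted p = 0.790), Gpc1 at -0.18 (adjusted p = 0.0490) and Sdc4 at 0.61 (adjusted p = 0.0274). The Lutheran laminin receptor gene Bcam stood at 0.42 ± 0.15 (adjusted p = 0.0630), and at 0.64 once the trends were removed (adjusted p = 0.0385). The 12 spiral ganglion neuron markers summed to 327155 to 462198 in old libraries and 493727 to 516104 in young libraries. Of the 12 markers 4 fell, where 18.7% of all tested genes did so. The part of these neurons in the falls of these lists was not tested.

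**Figure D5:**
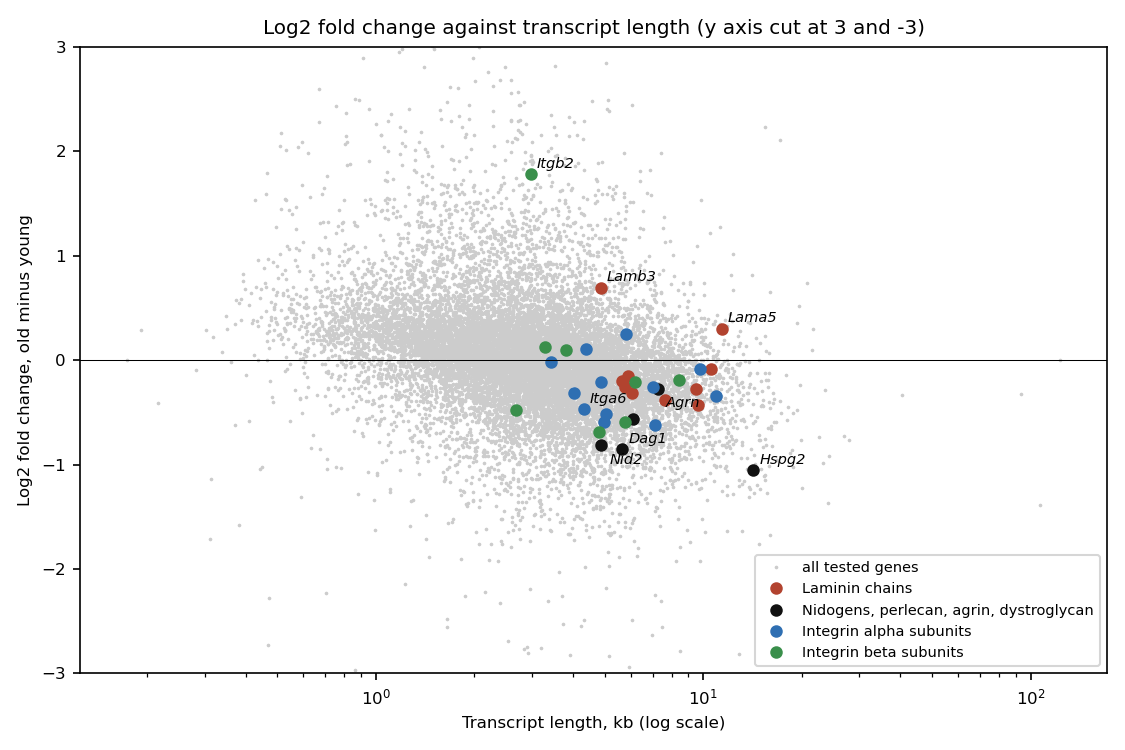
Log2 fold change (old minus young) against transcript length in kb (log axis) for the tested genes (grey, cut at 3 and -3) and for the genes described, by family (colours). They lie mostly at 4 to 14 kb, where grey points lean below 0; Hspg2 is the longest and lowest of them, while Itgb2, Lamb3 and Lama5 lie above 0.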

How the data were processed

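RNA was measured by sequencing in 6 libraries of auditory nerve, 3 old and 3 young. Per the labels' protocols, RNA came from a miRNeasy kit, poor RNA was left out, and TruSeq was the library kit. The submitters' processing notes name mm10, Partek, TopHat2 and DESeq2, with no settings. No source used here gives the strand setting or annotation. The columns named CTRL were taken as the young mice, because the header compares old with young and the other columns carry the old label.

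The deposited values behave as a normalised signal, each library's read counts scaled by 1 factor. Undoing that scaling, 99.931% to 99.971% of values above 0 lay within 0.1 of a whole read, and the count tests below used these reads. Per the file headers, the p-value, FDR and fold change score in the same table come from the authors' comparison.

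The main test was limma (3.58.1) with trended variances on log2(value + 1), two-sided, Benjamini-Hochberg adjusted, over genes kept by filterByExpr (minimum count 10, minimum total 15). With 3 mice a group an exact test of 1 value cannot go below p = 0.1. Alternatives were edgeR (4.0.16) and DESeq2 (1.42.0) on the recovered reads, TMM and upper-quartile scaling, pseudocounts of 0.5 and 10, other filters, a threshold of 0.01, the replicate number as a block, and libraries left out. edgeR called 2529 genes higher and 2885 lower. Each gene's longest transcript in GENCODE M21 gave its length and GC content (99.2% of tested genes), and their smooth trends per library (mgcv 1.9.3) were subtracted. The limma and edgeR steps were tested on simulated data.

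Every gene chosen by the rule is counted, a few genes are not reported here by name, and of each other list the up to 4 members with the smallest p, with counterexamples chosen after their values were seen. The genes and lists were chosen with earlier results of these data known. Coordinates are those of the file (mm10), with the end as the deposited stop less 1. Promoters are RefSeq's (GRCm38.p6).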

Additional observations from a re-analysis of the deposited data

How the results depend on the processing

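The numbers of tested genes higher and lower in old nerves were 2524 and 2969. Removal of the length and GC trends gave 1862 and 1912, and the other counts were 1078 and 1633 with the replicate block, 831 and 945 without both young 1 and old 2, and 763 and 1103 at the threshold of 0.01. With 1 library left out they ranged from 1159 to 2757 and from 1430 to 3360. Of the 36 genes 13 fell in the test reported, and 7 with upper-quartile scaling, 3 with the trends removed, 5 with the block, 7 without both libraries, 4 at 0.01 and 5 to 17 with 1 library left out. The 2 rises became 7 with the trends removed and 2 to 4 with 1 library left out. Same-numbered old and young libraries had correlations of deviations of -0.291, -0.412 and -0.05. Deviations from a mean of 3 libraries constrain one another, so these values cannot settle whether the numbers pair the samples. The block also spends degrees of freedom. The lists changed as follows, counting calls in either direction. Of all tested genes 34.6% were called in the main fit, 24.0% with the trends removed and 11.2% without both libraries. The other basement membrane proteins, listed with Ntng1 and Ntng2 (13), had 6 at 0.01 and 7 to 13 with 1 library left out. The ligands (4) had 2 with the block and 2 at 0.01. The adaptors (10) had 6 with the block, 5 without both libraries, 2 at 0.01 and 5 to 10 with 1 library left out. The dystrophin partners (6) had 3 with the block, 1 without both, 2 at 0.01 and 3 to 8 with 1 library left out. The glycosylation enzymes (9) had 5 with the trends removed, 4 with the block, 2 without both, 1 at 0.01 and 4 to 11 with 1 library left out. The other receptors (10) had 6 with the trends removed, 4 with the block, 3 without both, 2 at 0.01 and 4 to 11 with 1 library left out. Removing the trends turned Agrn to 0.21, Itgb4 to 0.32, Lama1 to 0.18 and Lamb1 to 0.015 on the log2 scale. It moved the paired log2 differences to 1.08 for Lama5/Lama4, 0.45 for Agrn/Hspg2, 0.26 for Itgb4/Itgb1, 0.34 for Itga7/Itga6, 0.52 for Itga3/Itga6 and -0.28 for Itga6/Lama2. With 1 library left out Lamb2/Lamb1 ranged from -0.064 to 0.126 and Itga6/Lama2 from -0.12 to 0.025. Of the values of the 36 genes over all alternatives 601 kept their call or stayed without one, 58 lost the call, 19 gained it and 4 turned with a call on at least 1 side. Among the 601 there were 12 that changed sign while missing the threshold both times, Itga3 (0.16) and Lamb2 (0.26) with the trends removed among them. The cause of these changes was not tested beyond the step named, and with 3 mice a group small differences may be missed.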
